A study of Mus musculus with 15 samples.

Results

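The genes described here are 34 genes of protein synthesis and of the amino acid response: 20 cytosolic aminoacyl-tRNA synthetase genes, 6 genes of asparagine, serine and one-carbon synthesis, and 8 genes that encode ATF4, its partners and its stress targets. They were chosen as a list of symbols, without a cut on their expression in these libraries. Earlier results of these data were known when the list was chosen. Each of the 34 had 1 entry in both tables of gene expression, among 23846 genes in mice given IL-33 or PBS and 23529 genes in reporter mice. Some of them lay near the floor of detection, so that 32 of the 34 passed the filter on low values in the comparison of IL-33 with PBS.

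Aminoacyl-tRNA synthetases join each amino acid to its tRNA and so supply the ribosome. When amino acids run short, or under other stresses, kinases phosphorylate the initiation factor eIF2, which lowers translation in general but raises translation of the mRNA of *Atf4*. The transcription factor ATF4 then binds C/EBP-ATF response elements and activates amino acid synthesis, amino acid transport, many tRNA synthetases and, under lasting stress, genes such as *Ddit3*, which encodes CHOP. Because ATF4 is set largely at translation, the mRNA level of *Atf4* is not a measure of its protein. Activated lymphocytes that grow and divide also depend on serine and one-carbon metabolism for nucleotides.

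The libraries came from 2 experiments. In the first, lung group 2 innate lymphoid cells (ILC2) were sorted as CD45+Thy-1.2+Lin-ST2+ cells from mice injected daily on 4 days with 500 ng IL-33 (ILC2IL-33, 2 libraries, named WT and Expand) or with PBS (ILC2PBS, 3 libraries, named 1, 2 and nA). In the second, all mice were 10BiTFoxp3GFP dual reporters given IL-33, in which Thy-1.1 placed in a bacterial artificial chromosome with *Il10* reports *Il10*, and GFP knocked into *Foxp3* reports *Foxp3*. Lung ILC2 were sorted into Thy-1.1+ (ILC210, 3 libraries) and Thy-1.1- cells (ILC2act, 3 libraries), and splenic regulatory T cells into Thy-1.1+ (Treg10+, 2 libraries) and Thy-1.1- cells (Treg10-, 2 libraries). The methods give mice of 6 to 14 weeks and either sex, C57BL/6 or the reporter strain, with cells of 5 mice pooled for sequencing. The 10BiT transgene is a reporter beside the native gene, and ILC2 were taken by ST2, the IL-33 receptor. The study describes independent experiments, each on pooled mice, but the labels do not name the experiment of a library, and p-values measure the spread between these libraries. The 2 experiments were read on different sequencers, and levels were compared only within each.

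Values are FPKM, a transcript level scaled to transcript length and library size. Such values carry no counts of reads, and the depth of each library is therefore unknown. FPKM below 1 were set to 1 before log2 values were tested with limma, so fold changes of low genes are understated. The threshold was an adjusted p under 0.05, by the Benjamini-Hochberg method over all genes tested. *Il10* followed the labels. It was at 103 and 128 FPKM in ILC2IL-33 against 0.153 to 0.711 FPKM in ILC2PBS, at 113 to 155 FPKM in ILC210 against 8.91 to 16.0 FPKM in ILC2act, and at 24.2 and 31.0 FPKM in Treg10+ against 0.572 and 1.06 FPKM in Treg10-. All 12 genes of an ILC2 marker list were above 1 FPKM in every ILC2 library. Of a T cell and Treg list of 10 genes, 7 had values, and all 7 were above 1 FPKM in every Treg library. Neither list was exclusive, since 10 of the 12 were above 1 FPKM in each Treg library and 3 to 6 of the 7 in each ILC2 library. Markers of other lung cells also differed between groups. The summed level of 12 genes of alveolar epithelium was 105 and 183 FPKM in ILC2IL-33 against 4883 to 13920 FPKM in ILC2PBS, and 5520 to 9117 FPKM in ILC210 against 433 to 553 FPKM in ILC2act. In bulk samples, fewer cells of a type and less RNA per cell cannot be told apart. *Ddx3y*, a gene of the Y chromosome, was at 0.0113 and 0.153 FPKM in ILC2IL-33, against 5.47 and 8.25 FPKM in ILC2PBS 1 and 2 and 0.0340 FPKM in ILC2PBS nA, so sex and treatment are partly confounded in the first experiment.

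To show which of the genes hold a C/EBP-ATF response element near their start, RefSeq promoter windows (GRCm38.p6) of 300 bases, from 250 before to 50 after each start, were searched for TGATGNAA on both strands. Of the 34 genes, 26 were searched and 7 of these held the motif (26.9%), against 1218 of all 27024 genes searched (4.51%). *Cars*, *Hars*, *Lars*, *Nars*, *Rars*, *Vars* and *Wars* had no entry. The motif was found at *Gars*, *Iars*, *Tars* and *Yars* among the synthetases, at *Asns* alone among the synthesis genes, and at *Chac1* and *Trib3* among the stress targets. These sites are shown with 11 bases on each side, in the direction of the gene and with the motif in capitals. A site read as TTNCATCA is the motif on the opposite strand.
*Asns*, chr6:7693214-7693243, minus strand, 23 bases before the start: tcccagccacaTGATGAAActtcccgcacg
*Gars*, chr6:55037960-55037989, plus strand, 30 bases before the start: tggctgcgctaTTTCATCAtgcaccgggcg
*Tars*, chr15:11399655-11399684, minus strand, 15 bases before the start: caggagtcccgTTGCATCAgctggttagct
*Iars*, chr13:49682126-49682155, plus strand, base 8 after the start: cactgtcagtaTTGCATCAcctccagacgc
*Yars*, chr4:129189895-129189924, plus strand, base 4 after the start: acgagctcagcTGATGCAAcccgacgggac
*Chac1*, chr2:119351038-119351067, plus strand, 193 bases before the start: cttccctgccgTTGCATCActcctgccagg
*Trib3*, chr2:152344028-152344057, minus strand, base 15 after the start: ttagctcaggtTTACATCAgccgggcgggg
At 5 of these 7 sites the motif stood within 23 bases of the start. In 20 further ATF4 target genes that are not among the 34, 9 of the 17 with a window held the motif (52.9%), and in 17 mitochondrial synthetase genes 0 of 14 did. A match is a run of letters and not a bound site, and its absence says only that these letters are not in the window.

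Genes of serine and one-carbon synthesis were higher after IL-33. Of the 32 genes tested, 9 were higher and 3 lower in ILC2IL-33 than in ILC2PBS, or 37.5% in all, and across all 12565 genes tested 34.6% passed, 13.1% higher and 21.5% lower. At a fold of at least 2 as well, 5 were higher (15.6%) and 2 lower (6.25%), against 8.22% and 18% of all genes. Of the 6 synthesis genes, 5 rose and *Asns* did not pass, with a median log2 fold change of 1.06. Of the 20 cytosolic synthetases, 3 rose, 1 fell and 16 did not pass, with a median of 0.22. Of the 6 tested regulators and stress targets, *Ddit4* rose, *Cebpb* and *Atf5* fell and 3 did not pass, with a median of -0.68. The median of all genes tested was -0.06. Quantile normalization moved it to 0.14 and equal medians to 0.12, and under each 9 of the 32 genes were higher and 3 lower (after quantile normalization *Atf4* passed and *Atf5* did not), while among all genes the share of changed genes that were higher was 37.9% as deposited, 55.1% and 49.9%.

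**Figure D1:**
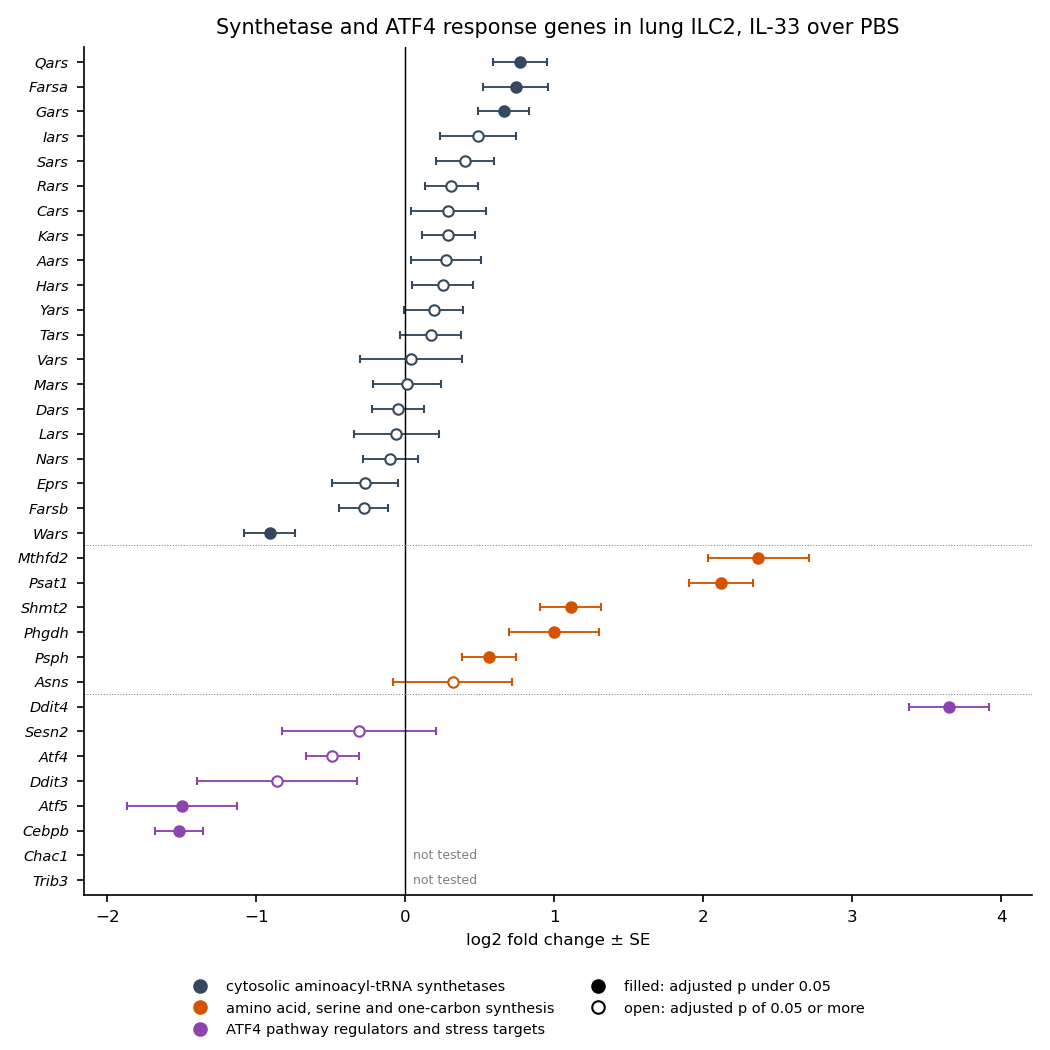
Log2 fold change with its standard error (x axis) of each of the 34 genes (y axis), ILC2IL-33 (n = 2) over ILC2PBS (n = 3), from limma, coloured by role and filled where the adjusted p was under 0.05. Of the synthesis genes 5 of 6 lay right of 0 and passed, *Ddit4* stood at 3.65, and *Cebpb*, *Atf5* and *Wars* were the 3 that passed left of 0.

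*Psat1*, *Phgdh* and *Psph* encode the enzymes that make serine from a glycolytic intermediate. *Psat1*, the aminotransferase of the pathway, was at 52.2 and 56.0 FPKM in ILC2IL-33 against 13.05, 9.87 and 14.9 FPKM in ILC2PBS. The groups stood well apart, and the difference was 4.35-fold (log2 fold change 2.12 ± 0.216 SE, adjusted p = 0.000286 from limma). *Phgdh*, the first and committed step, was at 14.8 and 17.9 FPKM in ILC2IL-33 against 6.24, 7.31 and 11.8 FPKM in ILC2PBS. Its groups did not overlap, but ILC2PBS nA lay nearer to the IL-33 libraries than the other two did, and the call was near the threshold (log2 fold change 1.00 ± 0.302 SE, adjusted p = 0.0374 from limma). *Psph*, the phosphatase that completes serine, was at 38.5 and 34.4 FPKM in ILC2IL-33 against 26.2, 21.3 and 26.8 FPKM in ILC2PBS. This was the smallest of the 5 changes, at 1.48-fold (adjusted p = 0.0473 from limma).

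*Shmt2* and *Mthfd2* encode mitochondrial enzymes that pass the one-carbon unit of serine to folate and oxidize it. *Mthfd2* was at 27.2 and 33.2 FPKM in ILC2IL-33 against 5.76, 3.91 and 8.70 FPKM in ILC2PBS, a 5.17-fold difference (log2 fold change 2.37 ± 0.338 SE, adjusted p = 0.00143 from limma). *Shmt2* was at 22.4 and 30.5 FPKM in ILC2IL-33 against 13.3, 11.2 and 12.0 FPKM in ILC2PBS, a 2.15-fold difference (adjusted p = 0.00513 from limma). Every IL-33 library was above every PBS library for both. *Asns*, encoding asparagine synthetase and the only synthesis gene with the motif shown above, was at 4.05 and 4.14 FPKM in ILC2IL-33 against 3.42, 5.12 and 2.00 FPKM in ILC2PBS. The IL-33 values lay within the range of the PBS libraries (log2 fold change 0.32 ± 0.399 SE, adjusted p = 0.56 from limma).

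**Figure D2:**
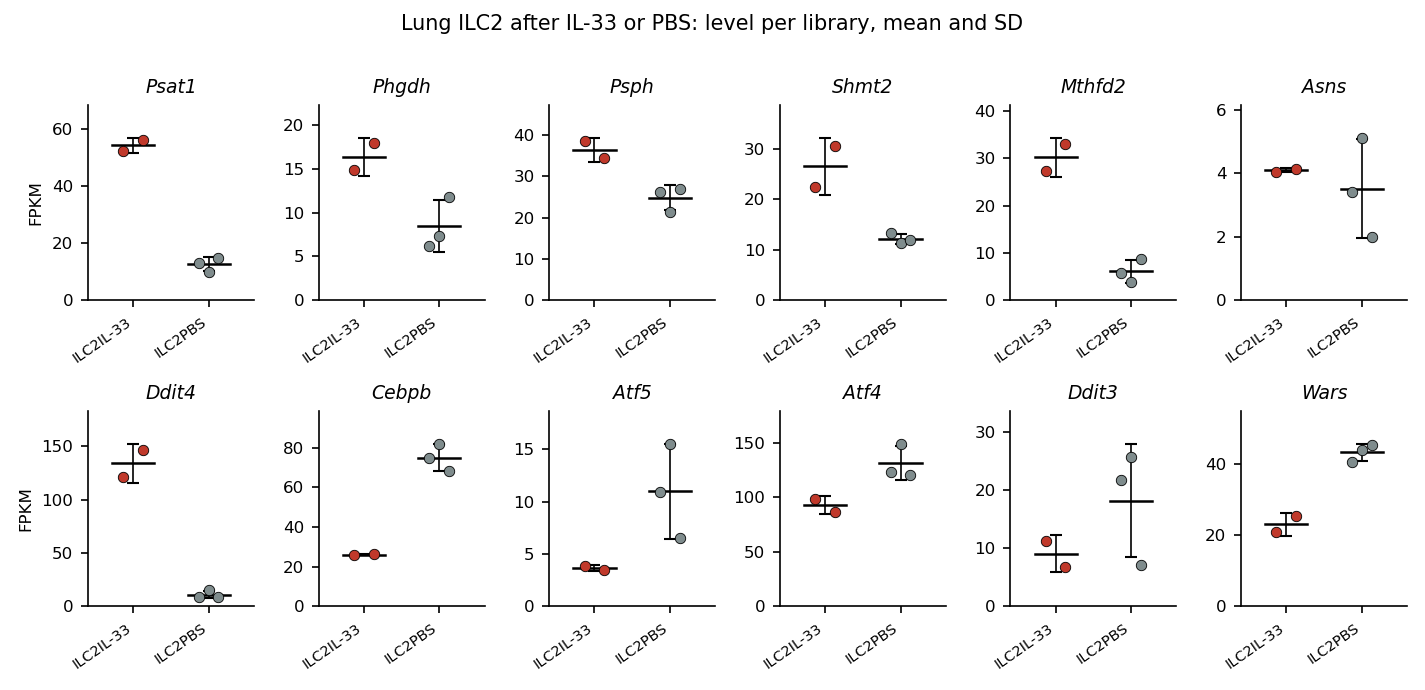
FPKM (y axis, from 0) of 12 genes in each ILC2IL-33 library (red, n = 2) and ILC2PBS library (grey, n = 3), with the mean (line) and SD (bar). *Psat1*, *Phgdh*, *Psph*, *Shmt2*, *Mthfd2* and *Ddit4* have every IL-33 point above every PBS point, *Cebpb*, *Atf5*, *Atf4* and *Wars* every IL-33 point below, and *Asns* and *Ddit3* overlap.

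The regulators and stress targets moved in both directions. *Ddit4*, encoding the mTORC1 inhibitor REDD1, was at 121 and 147 FPKM in ILC2IL-33 against 8.92, 15.1 and 8.92 FPKM in ILC2PBS. At 12.6-fold (log2 fold change 3.65 ± 0.267 SE, adjusted p = 8.99e-05 from limma) it had the largest change of the 32 tested genes. *Cebpb*, a leucine zipper factor that partners ATF4, was at 25.97 and 26.2 FPKM in ILC2IL-33 against 75.0, 81.9 and 68.0 FPKM in ILC2PBS, 2.87-fold lower (log2 fold change -1.52 ± 0.162 SE, adjusted p = 0.000345 from limma). *Atf5*, encoding a factor of the mitochondrial stress response, was at 3.87 and 3.44 FPKM in ILC2IL-33 against 10.9, 15.5 and 6.50 FPKM in ILC2PBS (log2 fold change -1.50 ± 0.370 SE, adjusted p = 0.0175 from limma). Both fell with no overlap between groups.

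*Atf4* itself was at 98.9 and 87.1 FPKM in ILC2IL-33 against 124, 149 and 121 FPKM in ILC2PBS. The groups did not overlap, but the difference did not pass (log2 fold change -0.49 ± 0.179 SE, adjusted p = 0.0702 from limma). *Ddit3* was at 11.3 and 6.80 FPKM in ILC2IL-33 against 21.8, 25.7 and 7.20 FPKM in ILC2PBS, and the low value of ILC2PBS nA fell among the IL-33 values. Its log2 fold change was -0.86 ± 0.539 SE (adjusted p = 0.254 from limma) with all libraries, and -1.43 (adjusted p = 0.00881 from limma) without ILC2PBS nA. In that second fit the remaining PBS libraries carried *Ddx3y* and the IL-33 libraries did not, so sex and treatment cannot be told apart in it. *Sesn2*, a leucine sensor upstream of mTORC1, stayed between 1.21 and 3.33 FPKM in all 5 libraries. *Trib3*, a pseudokinase that restrains ATF4, and *Chac1*, which degrades glutathione, were at 0.0262 to 1.02 FPKM and 0 to 0.624 FPKM and were not tested.

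Most cytosolic synthetases did not pass. Their summed level was 542 and 682 FPKM in ILC2IL-33 against 507 to 583 FPKM in ILC2PBS, so the groups overlapped. *Gars*, the glycine enzyme, was at 47.6 and 52.5 FPKM in ILC2IL-33 against 31.8, 35.1 and 28.5 FPKM in ILC2PBS (1.58-fold, adjusted p = 0.021 from limma). The promoter motif was found there and at *Iars*, *Tars* and *Yars*, which had log2 fold changes of 0.17 to 0.49 that did not pass. *Qars*, the glutamine enzyme, was at 48.2 and 59.5 FPKM in ILC2IL-33 against 35.3, 29.2 and 30.0 FPKM in ILC2PBS (1.71-fold, adjusted p = 0.0141 from limma). *Farsa* and *Farsb* encode the subunits of the phenylalanine enzyme. *Farsa* rose, with 15.4 and 17.7 FPKM in ILC2IL-33 against 9.97, 11.6 and 8.32 FPKM in ILC2PBS (log2 fold change 0.74 ± 0.220 SE, adjusted p = 0.0361 from limma). *Farsb* was at 16.9 and 18.2 FPKM in ILC2IL-33 against 21.8, 21.96 and 20.2 FPKM in ILC2PBS, without overlap but not past the threshold (log2 fold change -0.28 ± 0.167 SE, adjusted p = 0.226 from limma).

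*Wars*, the tryptophan enzyme, was the synthetase that fell. It was at 20.8 and 25.4 FPKM in ILC2IL-33 against 40.6, 44.0 and 45.3 FPKM in ILC2PBS, 1.88-fold lower (log2 fold change -0.91 ± 0.170 SE, adjusted p = 0.00516 from limma). Both IL-33 libraries were far below all PBS libraries. *Wars* is known as an interferon-inducible gene. In PBS cells the lysine and valine enzymes had the highest mean levels per length, *Kars* at 78.2 ± 7.41 FPKM and *Vars* at 77.4 ± 29.6 FPKM (SD, n = 3), and *Cars*, for cysteine, the lowest at 5.00 ± 0.598 FPKM. The SD of *Vars* came from ILC2PBS nA, at 111 FPKM against 66.6 and 54.8 FPKM in the other two, and *Vars* in ILC2IL-33 was as uneven, at 59.0 and 98.5 FPKM.

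Across the 32 tested genes, 14 had every IL-33 library above every PBS library and 5 every one below, which is 59.4%, against 62.4% of all genes tested. The calls of *Ddit4*, *Psat1*, *Cebpb* and *Wars* held in all 13 alternative settings that kept the call rule, and those of *Mthfd2* and *Shmt2* in 12 of 13. The calls of *Qars* (10 of 13), *Gars* (9), *Farsa* (7), *Phgdh* (6), *Atf5* (5) and *Psph* (5) depended on the setting. Without ILC2PBS 1 only 7 of the 12 calls held, without the WT library 7 and without the Expand library 6, where the single remaining IL-33 library was taken to have the spread of the PBS libraries. With both PBS libraries that carried *Ddx3y* left out, ILC2PBS nA stood alone and was taken to have the spread of the 2 IL-33 libraries. There 9 calls held, and *Phgdh* (log2 fold change 0.47), *Psph* (0.44) and *Atf5* (-0.83) did not pass.

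Other cell types moved with this comparison. Their part in the falls of *Cebpb*, *Atf5* and *Wars* was not tested, nor was their part in any of the rises. All 12 alveolar genes, all 10 endothelial genes and 9 of 10 mesenchymal genes fell, as did all 8 tested macrophage genes, whose summed level was 31.7 and 34.8 FPKM in ILC2IL-33 against 1739 to 3558 FPKM in ILC2PBS. None of the alveolar, endothelial and mesenchymal markers was at 0 in any ILC2 library. The summed level of the ILC2 marker list was higher, at 3721 and 4054 FPKM in ILC2IL-33 against 2049 to 3345 FPKM in ILC2PBS. Of its 12 genes, 4 rose and 8 did not pass, with a median log2 fold change of 0.49. Log2 fold changes were above 0 for 10 of them and below 0 for 2. Of 10 genes of early stress and tissue dissociation 6 fell, with a summed level of 1965 and 2389 FPKM in ILC2IL-33 against 4023 to 4607 FPKM in ILC2PBS. All 12 proliferation genes rose, with a summed level of 723 and 837 FPKM in ILC2IL-33 against 120 to 152 FPKM in ILC2PBS, and their part in the rise of the serine and one-carbon genes was not tested either.

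Genes around the pathway also moved in both directions. Of 16 tested mitochondrial synthetases 4 rose and 1 fell, with *Sars2* (log2 fold change 1.33), *Mars2* (1.31) and *Ears2* (-1.35) the largest. Of 16 genes for eIF2 kinases, eIF2B and eIF2 phosphatase subunits, *Eif2b2* (0.80) and *Eif2s1* (0.73) were among 3 that rose, and *Ppp1r15a*, encoding the stress-induced eIF2 phosphatase subunit GADD34, fell (-1.17). Of 8 tested amino acid transporters *Slc1a5*, which imports glutamine, rose (1.00), and *Slc3a2* (-1.22), the heavy chain of the leucine exchanger, and *Slc6a9* (-1.44), a glycine transporter, fell. Of 15 further ATF4 targets tested, 4 rose, and *Nupr1* (-3.95), *Atf3* (-3.75) and *Stc2* (-2.78) fell. *Aimp1*, a scaffold of the multisynthetase complex, rose (0.68). The part of the other cell types and of the early stress genes in these rises and falls was not tested.

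In lung ILC2 of IL-33-treated reporter mice, few of these genes differed between cells with and without *Il10* reporter expression. Of the 31 genes tested between ILC210 and ILC2act, 1 passed and was higher, *Wars* (3.23%), against 16% of all 11564 genes tested, 11.7% higher and 4.34% lower. It was under 2-fold, whereas 9.24% of all genes were higher and 1.05% lower by at least 2-fold. At an unadjusted p under 0.05 from limma 5 of the 31 stood (16.1%), against 27.1% of all genes. The median log2 fold change was 0.00 over the 20 synthetases, 0.12 over the 6 synthesis genes and 0.46 over the 5 tested regulators, and 0.03 over all genes. Equal medians moved the last to -0.11 and quantile normalization to -0.12, and gave medians of -0.14 and -0.03 for the synthetases. Among all genes that changed, 72.9% were higher as deposited, 54.1% with equal medians and 46.3% after quantile normalization.

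*Wars* was at 55.7, 53.8 and 51.4 FPKM in ILC210 against 44.5, 38.9 and 43.1 FPKM in ILC2act. The groups were apart by a small margin, 1.27-fold (log2 fold change 0.35 ± 0.092 SE, adjusted p = 0.0336 from limma). The call held in 8 of 16 alternatives, with adjusted p from 0.0119 to 0.209 over the limma fits among them. It was lost without ILC2act 2, ILC2act 3 or any of the ILC210 libraries, without the filter on low values, by the per-gene equal-variance test and with equal medians (log2 fold change 0.21). With equal medians the 1 gene that passed was *Dars*, which was lower (-0.38, adjusted p = 0.0328 from limma). *Cars* was at 8.81, 9.11 and 8.94 FPKM in ILC210 against 7.21, 6.47 and 6.76 FPKM in ILC2act (log2 fold change 0.40 ± 0.128 SE, adjusted p = 0.0737 from limma). *Nars*, for asparagine, was at 64.1, 64.7 and 64.5 FPKM in ILC210 against 59.2, 48.1 and 55.3 FPKM in ILC2act (adjusted p = 0.134 from limma). Neither overlapped and neither passed. In all, 5 of the 31 lay wholly higher and 1, *Dars* for aspartate, wholly lower, or 19.4%, against 32.6% of all genes.

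**Figure D3:**
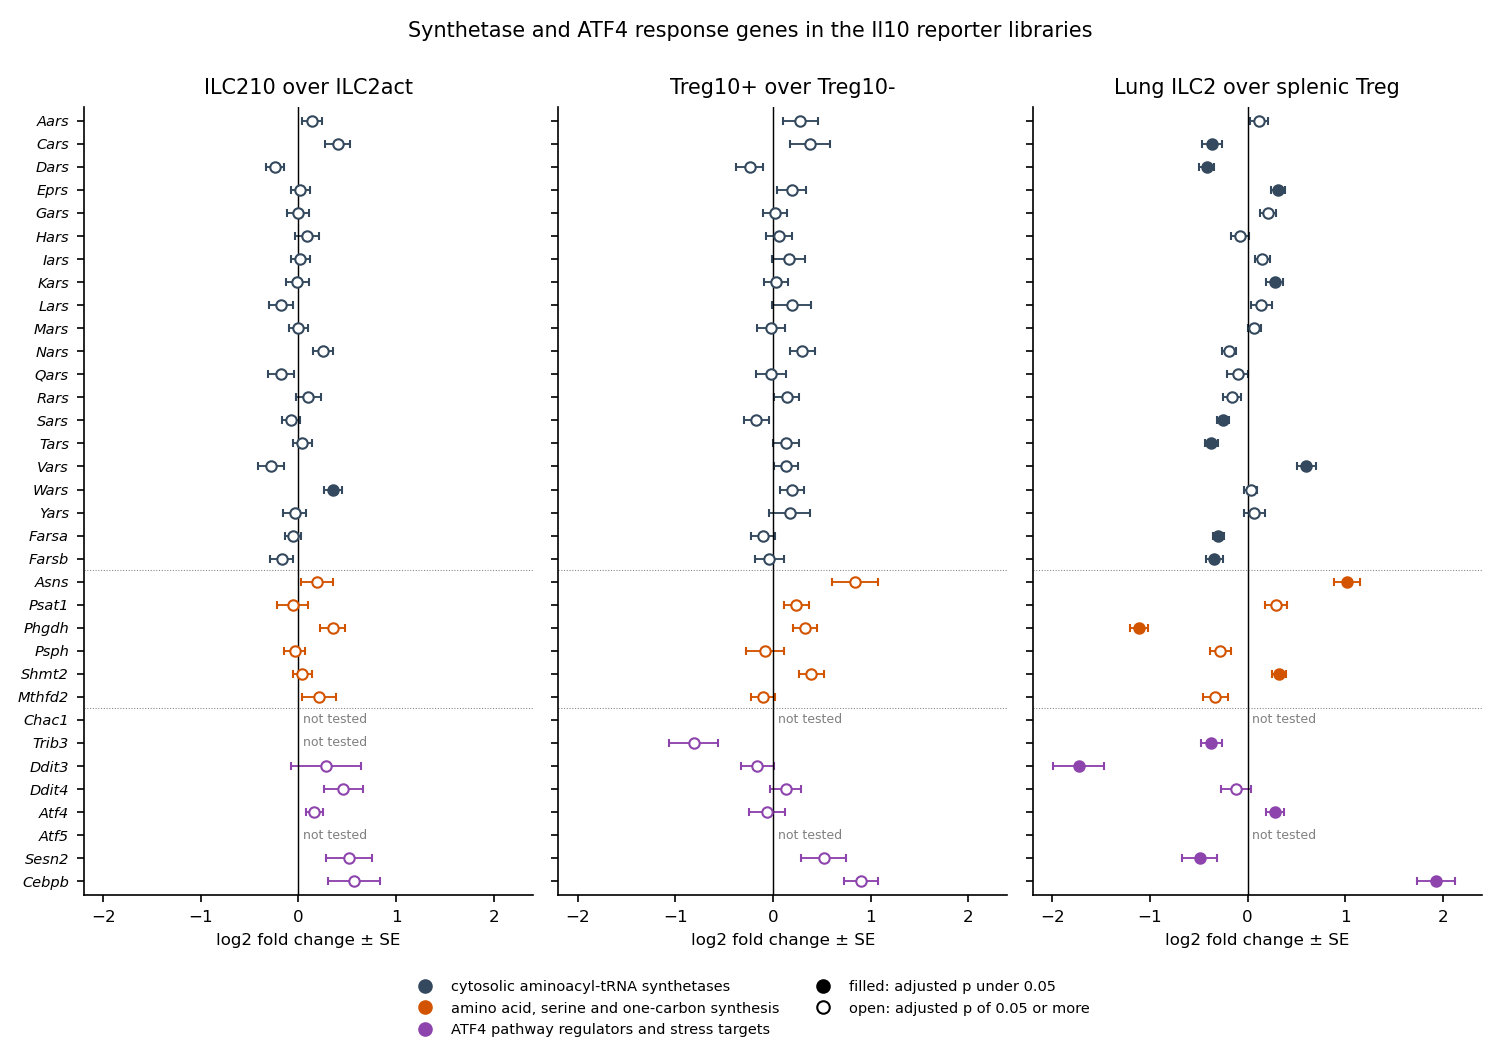
Log2 fold change with its standard error (x axis, the same range in each panel) of the 34 genes (y axis) between ILC210 and ILC2act (n = 3 each), Treg10+ and Treg10- (n = 2 each), and lung ILC2 (n = 6) and splenic Treg (n = 4), from limma, filled where the adjusted p was under 0.05. The reporter panels hold 1 filled point, *Wars* in ILC2, and the panel of ILC2 over Treg holds 17.

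Neighbouring numbers in the sample names were taken as pairs of ILC2 libraries, which the labels do not state. The pairing was inferred from these data, where deviations from the group means were correlated in each of the 3 pairs. With the pairs as a block, limma called 5 of the 31 genes, 4 higher (12.9%) and 1 lower (3.23%), against 23.9% of all genes, 15.9% higher and 8.02% lower. These were *Cebpb*, *Ddit4*, *Phgdh*, *Wars* and *Vars*, of which only *Wars* passed without the block. *Cebpb* was at 47.6, 87.2 and 76.2 FPKM in ILC210 against 39.5, 65.4 and 37.5 FPKM in the ILC2act libraries of the same pairs, higher in 3 of 3 pairs (log2 fold change 0.57, blocked adjusted p = 0.0148 and unblocked 0.207 from limma). *Ddit4* was at 83.8, 51.4 and 62.1 FPKM in ILC210 against 59.8, 40.5 and 42.8 FPKM in ILC2act, again higher in 3 of 3 pairs (0.46, blocked adjusted p = 0.00259 and unblocked 0.185 from limma). The groups overlapped for both, and the assumed pairs differed in level. *Phgdh* was at 81.5, 65.1 and 68.0 FPKM in ILC210 against 64.3, 54.2 and 49.9 FPKM in ILC2act (0.35, blocked adjusted p = 0.00851 from limma), and *Vars* at 106, 116 and 92.6 FPKM in ILC210 against 116, 152 and 115 FPKM in ILC2act (-0.28, blocked adjusted p = 0.0264 from limma).

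*Chac1* was low throughout and not tested, but was at 0.809, 0.895 and 0.974 FPKM in ILC210 against 0.233, 0.001 and 0.0898 FPKM in ILC2act, where 0.001 stands for a listed 0. *Atf4* was at 36.4, 34.9 and 36.4 FPKM in ILC210 against 31.7, 31.3 and 33.5 FPKM in ILC2act, without overlap and not past the threshold (log2 fold change 0.16, adjusted p = 0.298 from limma). Of 12 further ATF4 targets tested, *Nupr1* (3.19) and *Atf3* (1.97) rose, and of 17 mitochondrial synthetases *Lars2*, the leucine enzyme, fell (-0.63). Of 10 genes of early stress and tissue dissociation 4 rose, each by at least 2-fold and by up to 3.53 on the log2 scale, while their summed level overlapped, at 4052 to 6012 FPKM in ILC210 against 3705 to 5167 FPKM in ILC2act. Markers of other lung cells were higher in ILC210, with 10 of 10 endothelial, 11 of 12 alveolar, 9 of 9 mesenchymal and 6 of 6 macrophage genes tested passing. The summed macrophage level was 621 to 1439 FPKM in ILC210 against 49.9 to 79.8 FPKM in ILC2act. The part of these cells and of the stress genes in the values of *Cebpb*, *Wars*, *Chac1*, *Nupr1* and *Atf3* was not tested.

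In splenic Treg cells none of the 32 genes tested between Treg10+ and Treg10- passed by limma, against 1.5% of all 10837 genes (0.987% higher and 0.517% lower, and 0.904% and 0.461% at a fold of at least 2), and none passed by a per-gene equal-variance test. At an unadjusted p under 0.05 from limma there were 5 of the 32 (15.6%), against 14.1% of all genes. *Cebpb* came nearest, at 20.7 and 19.6 FPKM in Treg10+ against 10.2 and 11.3 FPKM in Treg10- (1.87-fold, log2 fold change 0.90 ± 0.170 SE, adjusted p = 0.0669 from limma), and passed in 6 of 13 alternatives. *Asns* was at 5.81 and 6.20 FPKM in Treg10+ against 3.13 and 3.61 FPKM in Treg10- (1.78-fold, adjusted p = 0.184 from limma). *Shmt2* was at 41.0 and 41.0 FPKM in Treg10+ against 31.9 and 30.5 FPKM in Treg10- (adjusted p = 0.235 from limma). In these 3 genes both Treg10+ libraries were above both Treg10- libraries, as in 14 of the 32, with 6 wholly lower, together 62.5% against 43% of all genes.

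*Phgdh* was at 154 and 151 FPKM in Treg10+ against 121 and 122 FPKM in Treg10- (log2 fold change 0.33 ± 0.121 SE, adjusted p = 0.299 from limma). *Trib3*, with the largest difference downwards among the 32 genes, was at 0.436 and 0.417 FPKM in Treg10+ against 1.94 and 1.59 FPKM in Treg10- (-0.81 ± 0.251 SE on the floored scale, adjusted p = 0.212 from limma). It passed in the fit of all 10 libraries (adjusted p = 0.0307 from limma), but entered the fits only through the Treg10- libraries, so this call is a description of values above and below the floor. With the pairs of neighbouring numbers as a block, which left 1 residual degree of freedom, *Cebpb*, *Asns*, *Shmt2*, *Phgdh* and *Nars* were higher, 5 of 32 (15.6%), against 16.3% of all genes, 9.43% higher and 6.84% lower. Their blocked adjusted p from limma were 0.000693, 0.0161, 0.019, 0.00837 and 0.0403, and hold only if the libraries were paired in this way. The labels do not state this pairing, and with 2 libraries per group the data cannot decide it. *Eif4ebp1*, encoding a translation inhibitor that ATF4 activates, was the 1 gene of the surrounding lists that passed without the block (0.80, adjusted p = 0.0439 from limma). The summed macrophage level was 290 and 333 FPKM in Treg10+ against 28.4 and 80.2 FPKM in Treg10-, and its part in the values of *Cebpb* was not tested.

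The reporter change was compared between the cell types directly, as the change in ILC2 minus that in Treg cells. It uses the same libraries as both reporter comparisons. Of 32 genes, 1 passed, *Trib3* (3.12%), against 9.37% of all 12475 genes, 7.01% higher and 2.36% lower, and 6.53% and 1.56% at a fold of at least 2. At an unadjusted p under 0.05 from limma there were 3 of 32 (9.38%), against 19.8% of all genes. Its values in ILC2 were 0.347, 0.662 and 1.15 FPKM in ILC210 against 0.369, 0.698 and 0.598 FPKM in ILC2act, so most lay under the floor, and the difference of the changes was 0.88 ± 0.214 SE (log2, adjusted p = 0.0287 from limma). Among the 10 libraries *Trib3* was above 1 FPKM in both Treg10- libraries and in ILC210 3. It therefore passed the filter through Treg10-, and the 0.88 is mostly the height of Treg10- over the floor, so the call is not support for a difference between the cell types. It held in 8 of 16 alternatives, with a difference of 0.73 to 2.05, and was lost without any 1 of the ILC2act libraries, either Treg10+ library or Treg10- 1, with equal medians and with a pseudocount of 0.1. *Asns* had a difference of -0.64 ± 0.265 SE (adjusted p = 0.207 from limma), with 9.86 ± 1.68 FPKM in ILC210 and 8.57 ± 0.983 FPKM in ILC2act (SD, n = 3 each), and 6.00 ± 0.272 FPKM in Treg10+ and 3.37 ± 0.335 FPKM in Treg10- (SD, n = 2 each). For *Cebpb* the difference was -0.33 ± 0.392 SE (adjusted p = 0.744 from limma), so unequal changes in the cell types were not shown.

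**Figure D4:**
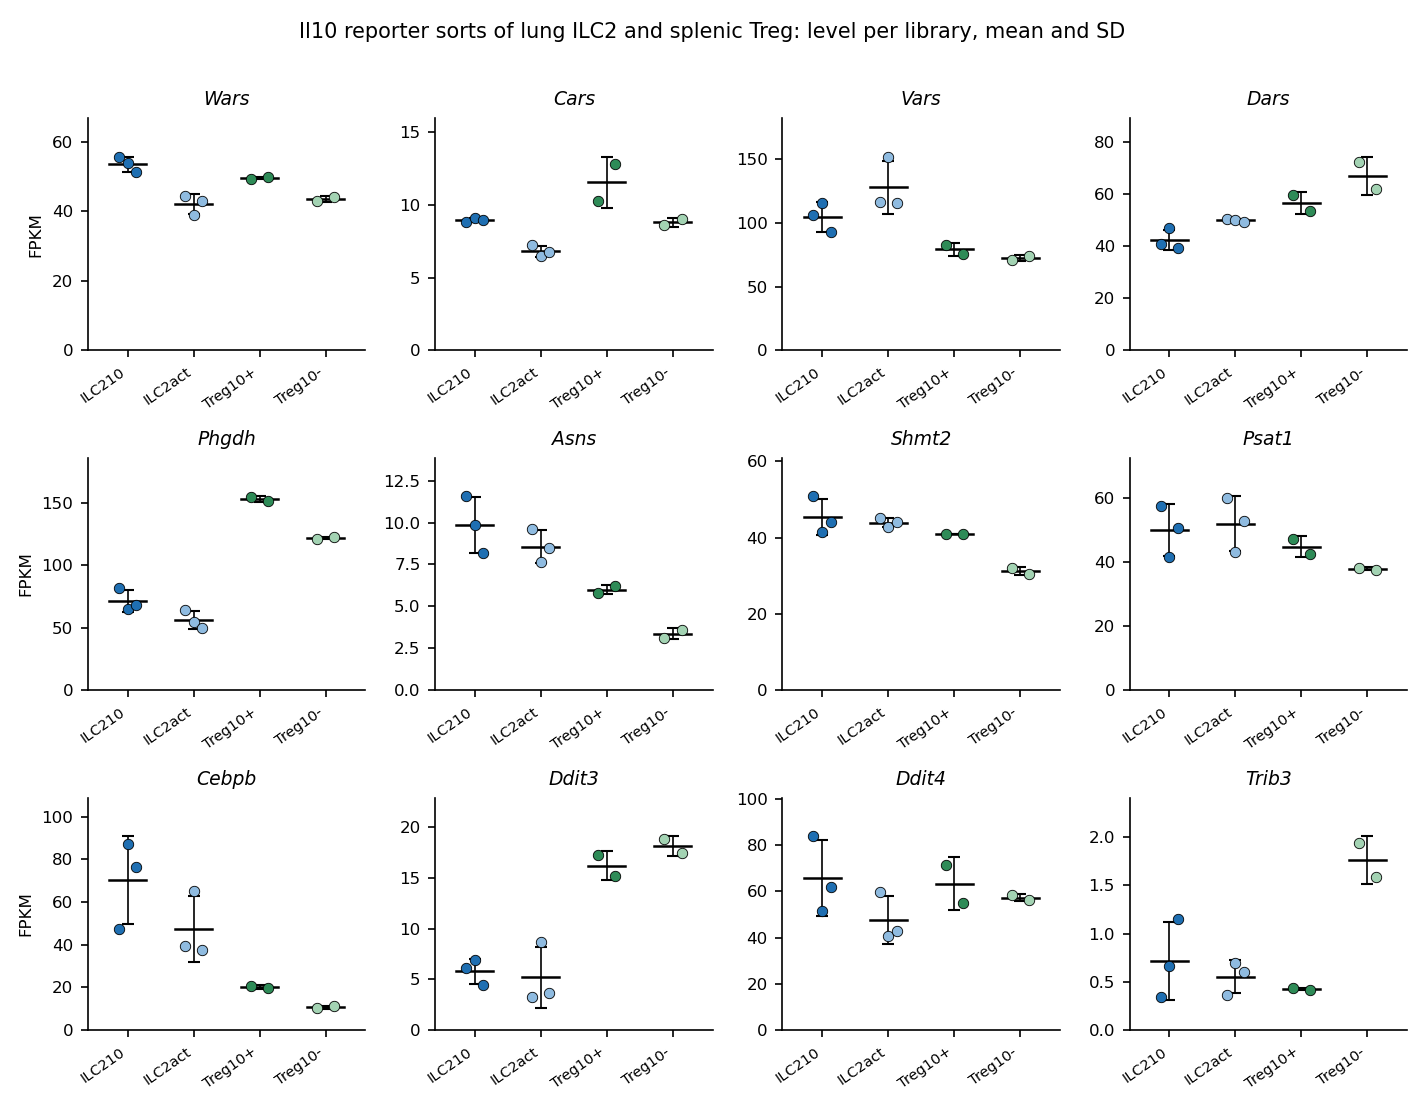
FPKM (y axis, from 0) of 12 genes in each library of ILC210, ILC2act (n = 3 each), Treg10+ and Treg10- (n = 2 each), with the mean (line) and SD (bar). *Cebpb* and *Asns* are highest in the ILC2 libraries, *Phgdh* and *Ddit3* in the Treg libraries, and *Trib3* has both Treg10- points above all others.

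Between lung ILC2 and splenic Treg cells of IL-33-treated reporter mice, the share of these genes that passed was near that of all genes. The contrast sets the mean of ILC210 and ILC2act against the mean of Treg10+ and Treg10-, and cell type and organ cannot be told apart in it. It uses the libraries of the reporter comparisons again. Of 32 genes tested, 7 were higher and 10 lower in ILC2, or 53.1%, against 50.7% of all 12475 genes, 24.5% higher and 26.1% lower. By at least 2-fold 2 were higher and 2 lower (6.25% each), against 10.3% and 7.62% of all genes. In 14 of the 32 (43.8%) the cell types did not overlap, against 35.9% of all genes. The median log2 fold change was -0.09 over the 32 genes and 0.00 over all genes.

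The largest differences were in regulators and in synthesis. *Cebpb* was at 47.6, 87.2 and 76.2 FPKM in ILC210 and 39.5, 65.4 and 37.5 FPKM in ILC2act, against 20.7 and 19.6 FPKM in Treg10+ and 10.2 and 11.3 FPKM in Treg10-. Every ILC2 library was above every Treg library, and the contrast was 3.8-fold (log2 fold change 1.93 ± 0.196 SE, adjusted p = 2.25e-05 from limma). *Ddit3* went the other way, with 6.10, 6.86 and 4.42 FPKM in ILC210 and 3.26, 8.64 and 3.67 FPKM in ILC2act, against 17.2 and 15.2 FPKM in Treg10+ and 18.8 and 17.4 FPKM in Treg10-. It was 3.31-fold lower in ILC2 (-1.73 ± 0.261 SE, adjusted p = 0.000349 from limma). *Atf4* was slightly higher in ILC2 (0.28, adjusted p = 0.027 from limma), with groups that overlapped, and the call was lost without ILC2act 3, Treg10- 2 or Treg10+ 2. *Sesn2* (-0.49) was lower in ILC2, also with overlapping groups, and lost its call without any 1 of 8 libraries and without the filter on low values. *Trib3* is counted among the lower genes (-0.37), but Treg10+ and 5 of the 6 ILC2 libraries lay under the floor, so the value reflects the Treg10- libraries and not the cell types. Its call was lost without Treg10- 1 and with either pseudocount.

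Within serine synthesis *Phgdh* was lower in ILC2 than in Treg cells, and *Psat1* and *Psph* did not pass. *Phgdh* was at 81.5, 65.1 and 68.0 FPKM in ILC210 and 64.3, 54.2 and 49.9 FPKM in ILC2act, against 154 and 151 FPKM in Treg10+ and 121 and 122 FPKM in Treg10-. The cell types did not overlap, and *Phgdh* was 2.16-fold lower in ILC2 (log2 fold change -1.11 ± 0.0901 SE, adjusted p = 4.27e-06 from limma). *Psat1*, the next enzyme, had a log2 fold change of 0.29 ± 0.115 SE (adjusted p = 0.0562 from limma), and *Psph* of -0.28 ± 0.106 SE (adjusted p = 0.0507 from limma). *Shmt2* was higher in ILC2 (0.32, adjusted p = 0.0039 from limma), and *Mthfd2* had a value of -0.33 (adjusted p = 0.0602 from limma). *Asns* was 2.03-fold higher in ILC2, with 11.6, 9.83 and 8.18 FPKM in ILC210 and 9.59, 7.63 and 8.48 FPKM in ILC2act, all above the Treg values given earlier (log2 fold change 1.02 ± 0.132 SE, adjusted p = 0.000123 from limma).

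Of the 20 cytosolic synthetases, 3 were higher and 6 lower in ILC2, by less than 2-fold each. *Vars* stood out, at 106, 116 and 92.6 FPKM in ILC210 and 116, 152 and 115 FPKM in ILC2act, against 83.1 and 75.7 FPKM in Treg10+ and 71.0 and 74.1 FPKM in Treg10- (1.52-fold, adjusted p = 0.00059 from limma). *Eprs* (log2 fold change 0.31), the fused enzyme for glutamate and proline, and *Kars* (0.28) were higher too. *Dars* (-0.42), *Tars* (-0.37), *Cars* (-0.36), *Farsb* (-0.34), *Farsa* (-0.30) and *Sars* (-0.25) were lower. Groups did not overlap for these except *Cars*, where the ILC2 libraries ranged from 6.47 to 9.11 FPKM and the Treg libraries from 8.59 to 12.8 FPKM. The calls of *Kars* and *Cars* were lost without Treg10+ 2, and that of *Kars* also without Treg10+ 1 or Treg10- 2.

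*Vars* and *Cars* stood at the ends of the synthetase levels in ILC210 and Treg10+. In ILC210 the highest mean levels per length were *Vars* at 105 ± 11.7, *Kars* at 87.3 ± 13.6 and *Gars* at 71.0 ± 8.73 FPKM (SD, n = 3), and in Treg10+ *Vars* at 79.4 ± 5.23, *Nars* at 74.4 ± 3.00 and *Kars* at 72.3 ± 0.627 FPKM (SD, n = 2). The gaps between neighbours in this order were similar to the SDs. *Cars* was the lowest in both, at 8.95 ± 0.152 FPKM in ILC210 and 11.5 ± 1.78 FPKM in Treg10+.

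Around the pathway, *Ppp1r15a* (log2 fold change 4.07), *Atf3* (5.73), *Nupr1* (3.62) and *Jdp2* (2.34) were far higher in ILC2, and *Eif2ak2* (-1.50), encoding the double-stranded RNA-activated eIF2 kinase PKR, and *Pars2* (-1.76), the mitochondrial proline enzyme, lower. In all, 4 of 17 mitochondrial synthetases were higher and 5 lower, as were 3 and 3 of 16 eIF2 genes and 3 and 2 of 13 further ATF4 targets. Of 8 tested amino acid transporters 5 were higher in ILC2, among them *Slc3a2* (1.21), *Slc38a2* (0.70) and *Slc7a1* (0.57), and 1 lower. All 10 genes of early stress and tissue dissociation were higher in ILC2, with a summed level of 4052 to 6012 FPKM in ILC210 and 3705 to 5167 FPKM in ILC2act, against 339 and 351 FPKM in Treg10+ and 282 and 320 FPKM in Treg10-. Among markers of other cells, 10 of 10 endothelial and 9 of 9 mesenchymal genes tested were higher in ILC2. Of 12 alveolar genes 8 were higher and 3 lower, and of 8 tested macrophage genes 1 was higher and 5 lower. The part of these cells and of the stress genes in the differences of *Cebpb*, *Atf3*, *Ppp1r15a*, *Nupr1* and *Jdp2* was not tested. Lung and spleen were prepared as different tissues.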

How the data were processed

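FPKM of 15 RNA-seq libraries in 2 tables were used. Per the labels and the study's methods, the authors made cDNA with SMARTer Ultra Low Input kits, aligned reads to GRCm38 with TopHat2 2.1.0 and computed the deposited FPKM per gene with Cufflinks 2.2.1. In the table of the reporter mice, zeros stand as 0.001, and entries marked as low data (312) or otherwise missing (5) were not used. Its unit was recorded under another name because of these text entries. Groups came from sample titles. The source field of the Treg samples names lung ILC2, whereas title, description and methods give Treg cells.

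FPKM were floored at 1, put on the log2 scale and compared within each table in R 4.3.3 by limma 3.58.1, with moderated variances that follow a trend on the mean. A gene entered a fit if it exceeded 1 FPKM in 2 libraries (3 for ILC210 against ILC2act). The study's per-gene equal-variance test was an alternative. The labels do not say what the numbers in the reporter sample names stand for, and neighbouring numbers were checked as pairs. Deviations from group means correlated at 0.345, 0.299 and 0.187 in the 3 ILC2 pairs, each over 0.1, so blocked results are given where they changed calls. In the 2 Treg pairs the correlation was 0.385, and -0.385 for the opposite pairing. With 2 libraries per group these values mirror each other by construction, so they cannot decide whether the Treg libraries were paired. Blocked Treg results are given all the same. The steps were tested on simulated data.

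All 34 genes are named. Of each surrounding list, up to 3 passing genes of largest change and up to 1 other of highest level were eligible, and *Il10* served as a check of labels. The genes, lists and tests were chosen with earlier results of these data known. Promoters were searched in Python 3.11.15, and that of 1 of the 34 genes is not reported here. Alternatives were pseudocounts of 1 and 0.1 in place of the floor, no filter, a mean of at least 5 FPKM, quantile normalization, equal medians, a fold of at least 2, a fit of all 10 reporter libraries, blocks, and leaving out each library. Leaving out both ILC2PBS libraries with *Ddx3y*, and the block in the difference of reporter changes, were added after seeing the data.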

Additional observations from a re-analysis of the deposited data

Results flagged for a closer look

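For *Trib3*, the change between reporter-positive and reporter-negative cells differed between ILC2 and Treg cells by 0.88 on the log2 scale (SE 0.214, adjusted p = 0.0287 from limma, range 0.00994 to 0.117 over the alternatives, where the difference was 0.73 to 2.05). It was at 0.719 ± 0.404 FPKM in ILC210 and 0.555 ± 0.169 FPKM in ILC2act (SD, n = 3 each), and at 0.427 ± 0.0135 FPKM in Treg10+ and 1.76 ± 0.246 FPKM in Treg10- (SD, n = 2 each). *Trib3* passed the filter through Treg10-, and 7 of the other 8 libraries lay under the floor of 1 FPKM, so the value is mostly the height of Treg10- over the floor and is given as a description. With the pairs as a block the adjusted p was 0.0495.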

How the results depend on the processing

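No call of the 34 genes turned its direction under any alternative. Of IL-33 against PBS, 12 genes passed, and 9 without ILC2PBS 1 and 2, 7 with a fold of at least 2 as well, 4 by the per-gene equal-variance test, and 6 to 12 without 1 library. Of ILC210 against ILC2act, 1 passed, 0 without the filter on low values or with a fold of at least 2, and 0 to 1 without 1 library. The gene was *Dars*, lower, with equal medians, *Cars*, higher, by the per-gene test and *Cebpb*, higher, without ILC210 1. With the replicate block by neighbouring numbers 5 passed, and with a block by the tag in the sample names 1. Of Treg10+ against Treg10-, 0 passed, 1 with either pseudocount or with a mean of at least 5 FPKM (*Cebpb*, higher), 1 in the fit of all 10 libraries (*Trib3*, lower), 5 with the replicate block, and 0 to 1 without 1 library (*Cebpb*, higher). Of ILC2 against Treg, 17 passed, 4 with a fold of at least 2, and 14 to 19 without 1 library. Of the difference of reporter changes, 1 passed, and 0 with a pseudocount of 0.1, a mean of at least 5 FPKM, equal medians or a fold of at least 2, and 0 to 1 without 1 library. The causes were not tested. Over all genes, calls numbered 4353 for IL-33 against PBS, and 2735 with a mean of at least 5 FPKM, 2387 by the per-gene test, 2754 without ILC2PBS 1 and 2, and down to 2452 without 1 library. For ILC210 against ILC2act they numbered 1852, and 985 without the filter, 1025 with the mean of 5, 868 by the per-gene test, and down to 929 without 1 library. For Treg10+ against Treg10- they numbered 163, and 277 with a pseudocount of 1, 14 without the filter, 1 by the per-gene test, 410 in the fit of all 10, 1763 with the block, and up to 493 without 1 library. The difference of reporter changes gave 1169, and 533 with the mean of 5 and 762 without Treg10+ 1. Of its higher share, 74.8%, quantile normalization left 59.9% and equal medians 64.1%. The replicate block changed no other call. FPKM give no depth, groups of 2 and 3 libraries limit the precision, and genes near 1 FPKM (*Trib3*, *Chac1*, *Atf5*) lie at the floor.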

Other observations

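Levels of the 2 experiments are given side by side without a comparison, since they were read on different sequencers. Both ILC2IL-33 and ILC2act are lung ILC2 of IL-33-injected mice, but ILC2IL-33 are total ILC2 and ILC2act only the Thy-1.1- part from reporter mice. *Phgdh* was at 16.4 ± 2.17 FPKM in ILC2IL-33 (SD, n = 2) and 56.1 ± 7.42 FPKM in ILC2act (SD, n = 3). *Atf4* was at 93.0 ± 8.32 FPKM in ILC2IL-33 and 32.2 ± 1.19 FPKM in ILC2act, and *Psat1* at 54.1 ± 2.71 and 52.1 ± 8.52 FPKM.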
